A study of Mus musculus with 2 samples.

Results

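The genes described here are the mouse microRNA genes at or above a set signal in adipose-derived stromal cells. Such cells are the fibroblast-like progenitors obtained by culturing fat tissue. The genes were chosen by signal. Of 595 microRNA genes that could be read through a transcript cluster (the group of probes the array summarises into 1 value) with a single gene symbol, 211 (35.5%) had a mean over both arrays of 4.65 or more on the log2 scale. Where a gene had several clusters, the one with the highest mean was used. Symbols ending in hg, which name host transcripts rather than microRNAs, were left out (4 symbols). The same level held 15088 of all 30142 named genes. The mean that chose the genes was taken over both genotypes, so levels are given below as a description only.

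The mice were C57BL/6J animals 6 to 10 weeks old, the fat was inguinal, and the cells were grown in DMEM with 15% fetal bovine serum. One sample was wild type. The other came from a global knockout of Wisp1, made by flanking exons 1 to 5 with flox sites and crossing to a line the labels call Cre-neo. The labels give neither the number of animals behind a sample nor what drives the Cre. Each genotype had 1 array, so there were no replicates, no spread between samples and no test: every difference below was formed by subtracting the log2 value of wild type from that of the knockout and compares 2 arrays. Where a pair of values is given for a gene, wild type comes first.

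MicroRNAs are short RNAs that guide Argonaute proteins to partly matching messenger RNAs and lower their output. Drosha and Dgcr8 cut a hairpin from a long primary transcript in the nucleus, exportin 5 carries it out, and Dicer trims it to the mature strand. Bases 2 to 8 of the mature strand, the seed, are the main determinant of which targets it pairs with, so microRNAs with the same seed form a family. Total RNA was labelled with a whole-transcript kit here, and the labels do not say whether a cluster's signal comes from primary transcript, hairpin or mature strand. In these bulk samples, fewer cells of a type and less RNA per cell cannot be told apart.

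The mature strands of the genes on which the results turn are printed from RefSeq (GRCm38.p6), 5′ to 3′, with the seed in capitals. RefSeq's table held a mature sequence for 172 of the 211 genes. The first set holds the mature strands of the 4 genes that differed by 1.5-fold or more, with Mir453 and the shared strand of Mir218-1 and Mir218-2.
mmu-miR-540-3p: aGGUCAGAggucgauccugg
mmu-miR-540-5p: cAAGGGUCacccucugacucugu
mmu-miR-99a-5p: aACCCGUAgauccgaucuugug
mmu-miR-99a-3p: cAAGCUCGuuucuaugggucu
mmu-miR-345-5p: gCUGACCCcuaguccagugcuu
mmu-miR-345-3p: cCUGAACUaggggucuggagac
mmu-miR-7228-5p: uGGCGACCugaacagaugu
mmu-miR-7228-3p: aGUGUUCGgucuccagu
mmu-miR-453: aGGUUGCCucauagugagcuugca
mmu-miR-218-5p: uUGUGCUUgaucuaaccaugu

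The second set shows families with several genes at this signal: the other miR-99/100 strands, let-7, miR-34, miR-449a and miR-378. The miR-378b strand starts 1 base later than that of miR-378c, which shifts its seed.
mmu-miR-99b-5p: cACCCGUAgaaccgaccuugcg
mmu-miR-100-5p: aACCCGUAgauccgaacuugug
mmu-let-7c-5p: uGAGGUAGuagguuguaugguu
mmu-let-7d-5p: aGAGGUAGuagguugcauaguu
mmu-let-7e-5p: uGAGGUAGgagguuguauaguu
mmu-let-7i-5p: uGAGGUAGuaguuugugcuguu
mmu-miR-34a-5p: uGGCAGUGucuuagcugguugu
mmu-miR-34b-5p: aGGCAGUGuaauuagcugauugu
mmu-miR-449a-5p: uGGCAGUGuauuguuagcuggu
mmu-miR-378b: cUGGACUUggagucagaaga
mmu-miR-378c: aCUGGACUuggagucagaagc

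The third set belongs to genes with very high signal in the cluster used. It is shown because stretches of these strands also occur in the promoter windows of many other genes, as described further on.
mmu-miR-3473a: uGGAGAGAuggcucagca
mmu-miR-3470b: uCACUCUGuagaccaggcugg
mmu-miR-3471: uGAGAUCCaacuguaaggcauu
mmu-miR-1195: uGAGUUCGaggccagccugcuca

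In GRCm38.p6, miR-540-3p lies at chr12:109586122-109586141 on the plus strand and miR-99a-5p at chr16:77598940-77598961 on the plus strand. The strand of miR-345-5p lies at chr12:108836989-108837010 and that of miR-7228-5p at chr5:134572076-134572094, both on the plus strand.

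A few facts of the arrays frame these values. Wisp1, listed under its current symbol Ccn4, read 7.79 in wild type and 5.40 in the knockout, 5.25-fold lower. Of 12 measured stromal markers, 11 were at or above 4.65, among them Col1a1, Thy1 and Pdgfrb, and 9 of the 12 read higher in the knockout. The 3 lower ones were Eng (9.38 and 9.17), Itgb1 (10.91 and 10.69) and Cd44 (8.66 and 8.36). Nt5e, at 3.27 and 3.28, lay below 4.65. Of 9 macrophage markers, 6 read higher, 2 lower and 1 the same. Lyz2 went from 6.14 to 7.43 and Fcer1g from 5.13 to 6.02. The defining markers Ptprc (2.86 on both arrays), Csf1r (4.61 and 4.62) and Adgre1 (3.33 and 3.25) lay below 4.65. Of the 5 markers with a mean of 4.65 or more, 4 read higher and 1 lower. Besides Lyz2 and Fcer1g, these were Cd68 (5.77 and 6.35), Tyrobp (4.57 and 5.09) and the lower Cd14 (4.90 and 4.72). The dimmer Itgam read 3.69 and 3.78. The summed level of the list was 41.0 in wild type and 44.1 in the knockout. For 6 endothelial markers, of which 4 read higher and 2 lower, the sums were 24.0 and 25.6. Cdh5 (3.81 and 4.62) and Emcn (3.24 and 4.04) were each 0.80 higher but had means below 4.65, and Pecam1 read 3.56 and 3.64. Tek, the only one of the 6 with a mean of 4.65 or more, was lower at 5.61 and 5.47. Vwf, the other lower one, read 4.31 and 4.29. Over the 6 skeletal muscle markers, 3 read higher and 3 lower, and 5 had a mean of 4.65 or more. The 6 epithelial markers had 2 at that level, with 1 of the 6 higher and 5 lower. A mean of 4.65 therefore cannot by itself be read as clear expression. The part of other cells in the microRNA values was not tested.

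None of the 211 microRNA genes differed by 2-fold between the arrays in either direction. Among all named genes at the same signal, 0.0663% were at least 2-fold higher in the knockout and 0.0994% at least 2-fold lower. At 1.5-fold, 2 microRNA genes (0.948%) were higher, where 0.716% of all named genes were, and 2 (0.948%) were lower, where 0.464% were. These shares of the microRNA genes rest on 2 genes each and lie near the background.

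**Figure D1:**
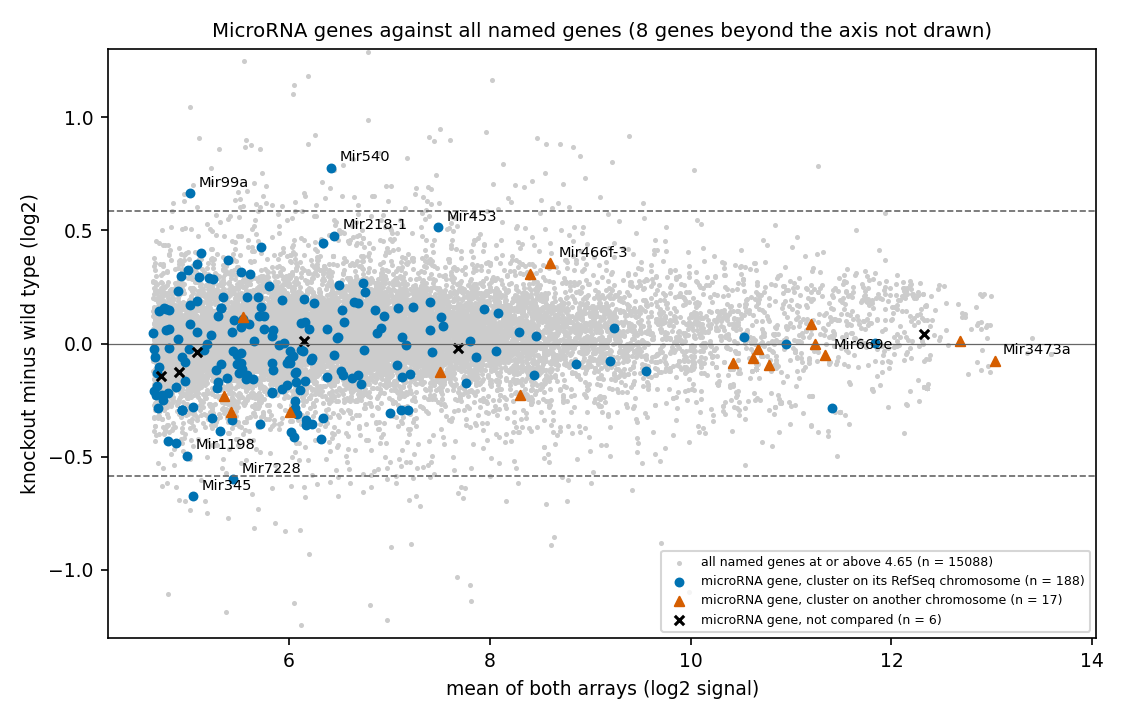
The mean of both arrays (log2 signal, x axis) is plotted against knockout minus wild type (log2, y axis) for all 15088 named genes at or above 4.65 (grey) and for the 211 microRNA genes, marked by whether their cluster lies on the chromosome RefSeq gives for the gene. Dashed lines mark a 1.5-fold difference: Mir540 and Mir99a lie above the upper line, Mir345 and Mir7228 below the lower one, and the brightest microRNA genes lie near 0.

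The gene with the largest difference was Mir540, a microRNA of the imprinted Dlk1-Dio3 region. It read 6.03 in wild type and 6.81 in the knockout, a difference of 0.78 or 1.71-fold. Mir99a, whose strand belongs to the miR-99/100 family, read 4.69 and 5.35, a difference of 0.67 or 1.59-fold. Its wild-type value lay close to the level that chose the genes. In the other direction, Mir345 read 5.38 in wild type and 4.71 in the knockout, a difference of -0.68, so wild type was 1.60-fold higher. Mir7228 read 5.74 and 5.15, a difference of -0.60 or 1.51-fold. All 4 clusters lay on the chromosome that RefSeq gives for the gene, and no other cluster carried any of the 4 names.

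Beyond these, 8 genes made up the rest of the 10 highest differences. Mir453 read 7.23 in wild type and 7.74 in the knockout. Mir218-1, a microRNA gene inside Slit2, read 6.22 and 6.69. Mir3095 (0.45), Mir1964 (0.43), Mir1938 (0.40), Mirlet7i (0.37), Mir466f-3 (0.36) and Mir3058 (0.35) followed, given here as differences. The cluster used for Mir466f-3 lies on another chromosome than RefSeq gives, and the cluster on the RefSeq chromosome differed by 0.02.

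The other 8 of the 10 lowest differences began with Mir1198, which read 5.23 in wild type and 4.74 in the knockout. Mir327 (-0.44), Mir3109 (-0.43) and Mir378b (-0.42) came next as differences. Mir34b, a member of the miR-34 family known as a target of p53, read 6.25 and 5.84. Mir697 (-0.39), Mir669o (-0.38) and Mir342 (-0.36) completed the group.

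Over all 211 genes, 92 read higher in the knockout, 118 lower and 1, Mir3067, the same on both arrays (5.18). The median difference was -0.03, with quartiles at -0.15 and 0.11. Among all named genes at or above 4.65, 56.9% read higher and 39.9% lower, with a median of 0.03. The share of microRNA genes that read higher was 43.6% in the deposited values and lay between 38.9% and 46.0% after median centring, quantile normalization or loess centring, against 48.4% to 63.5% of all named genes under the same scalings. These scalings turned the sign of 16 of the 211 genes, none with a difference larger than 0.05. The shares above are not matched for level, and the share of named genes that read higher varied with level. In the deposited values, 31.4% of microRNA genes and 44.1% of named genes with a mean from 4.65 to under 5 read higher. The shares were 50% and 53.9% from 5 to under 6, and 42.6% and 59.6% from 6 to under 7. They were 45.5% and 61.6% from 7 to under 8, and 42.3% and 59.3% for 8 or more.

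The microRNA genes also differed by more per gene at most levels. The median size of a difference, whatever its sign, was 0.14 for the microRNA genes and 0.09 for all named genes. For genes with a mean from 4.65 to under 5 it was 0.17 against 0.08, and from 6 to under 7 it was 0.15 against 0.09. For a mean of 8 or more the order turned, with 0.07 for 26 microRNA genes and 0.11 for 3177 named genes. How many probes each cluster holds is not in the sources used here, and its part in these sizes was not tested.

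Microarray signals of different clusters depend on their probes and are no measure of relative amounts, so the following levels describe clusters, not abundance. The highest signal belonged to Mir3473a, at 13.07 (wild type) and 12.99 (knockout). Mir3470b read 12.68 and 12.69, Mir6240 12.30 and 12.34, and Mir1954 11.83 on both arrays. Mir692-1 read 11.55 and 11.27, the widest gap among the 10 highest means. The others of these 10, Mir669e, Mir3473f, Mir1191, Mir703 and Mir467f, differed by at most 0.09 in either direction.

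Many of these bright clusters were not where RefSeq puts the microRNA. The cluster's own name gives a chromosome, and it was the chromosome of the gene in RefSeq for 99.8% of the 29743 named genes that could be compared. Of 205 microRNA genes compared, 188 matched and 17 (8.29%) did not, whereas among microRNA genes below 4.65 only 4 of 368 (1.09%) did not. Of the 20 highest means, 19 could be compared, and 10 of those were on another chromosome. A further 5 genes had a cluster with no chromosome in its name, among them Mir6240. One, spelled Mir446q by the platform, had no RefSeq entry.

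For 10 of the 17 genes on another chromosome, a second cluster with the same name did lie on the RefSeq chromosome, and it was dimmer in all 10, as the rule of the highest mean requires. Mir669e had a mean of 11.34 in the cluster used and 3.13 in the cluster on the RefSeq chromosome. The means were 10.43 and 3.17 for Mir669h, 10.67 and 3.47 for Mir669m-2, and 8.40 and 2.68 for Mir325. For Mir3471-1, whose strand miR-3471 is printed above, they were 10.62 and 5.08. Mir3470b stayed bright in both, at 12.69 and 11.35. The cluster on the RefSeq chromosome lay below 4.65 for 5 of the 10 genes, which would not have been chosen from it. Using only clusters on the RefSeq chromosome, a choice made after seeing the data, left 193 microRNA genes, of which 2 were 1.5-fold higher and 2 lower.

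**Figure D2:**
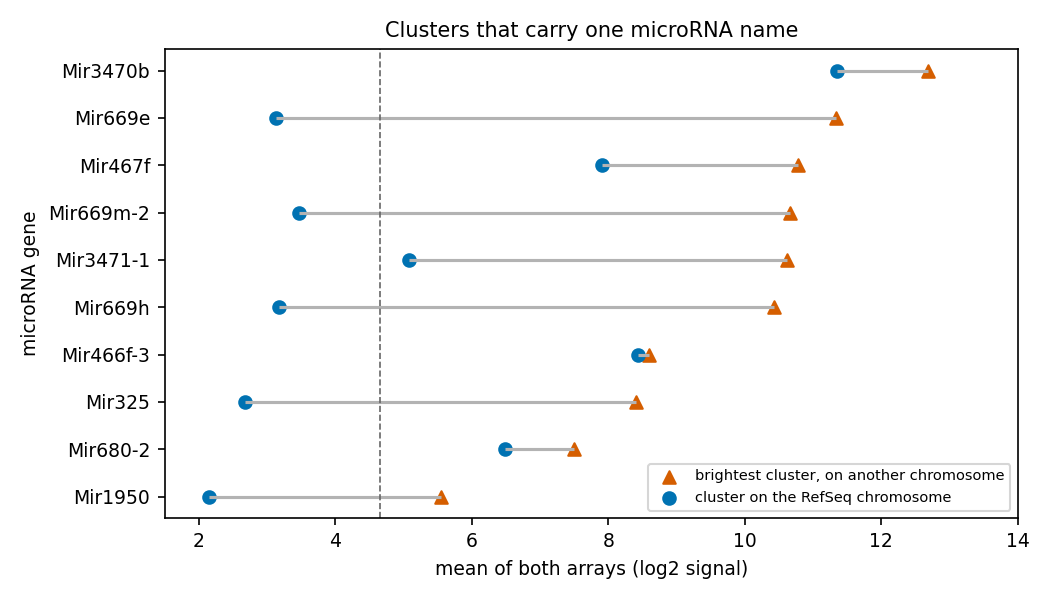
For the 10 microRNA genes whose brightest cluster lies on another chromosome than RefSeq gives and that have a second cluster on the RefSeq chromosome, the mean of both arrays (log2 signal, x axis) is drawn for both clusters. The dashed line marks 4.65, and 5 of the 10 clusters on the RefSeq chromosome lie to its left.

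Some clusters shared more than a name. The name Mir684-1 was carried by 6 clusters on 6 chromosomes, all with the same values, 7.26 and 6.97. Of the 211 genes, 27 had several clusters.

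The mature strands of some of these genes, printed above, share stretches with many promoters. Each strand was cut into all stretches of 16 bases, and these were looked for on both strands of the RefSeq promoter windows (250 bases before to 50 after the start of 27025 genes). A stretch of miR-3473b occurred in windows of 65 genes (0.241%), of miR-3473a in 53, of miR-3470b in 28, of miR-574-5p in 24, of miR-5126 in 20, of miR-3471 in 13 and of miR-1195 in 10. These 7 genes were 4.07% of the 172 with a mature sequence. Below 4.65 the count was 3 of 310 (0.968%), and among the 20 highest means it was 4 of 14. A match says only that the letters occur there. Mir3473b, with the most matches, had a middling signal of 5.95 on both arrays.

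The hairpins of the 211 genes were also richer in G and C, but not clearly those of the 20 highest means. The median GC content was 53.8% over 152 hairpins, against 46.2% over 301 hairpins of microRNA genes below 4.65. For the 20 highest means it was 47.4% over 10 hairpins, and for the other 191 genes 54.4% over 142. The median hairpin lengths of the 211 genes and of microRNA genes below 4.65 were 85 and 81 bases. Base composition affects how strongly probes bind, and its part in the signal was not tested.

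The Dlk1-Dio3 region is an imprinted stretch that carries one of the largest groups of microRNA genes in mammals, transcribed from the maternal chromosome. By RefSeq gene order, 42 microRNA genes between Dlk1 and Dio3 were measured and 20 reached 4.65. Of the 20, 10 read higher in the knockout and 10 lower, with a median difference of 0.00. The genes next to Mir540 were also higher in the knockout, by less: Mir337 (5.41 in wild type, 5.51 in the knockout) by 0.10, Mir3544, which lay below 4.65 at 3.46 and 3.58, by 0.12, and Mir665 (6.65 and 6.88) by 0.23. The next gene, Mir3070a (5.72 and 5.57), differed by -0.15. Further on, Mir494 read 6.24 and 5.93 and Mir679 read 6.41 and 6.05, both lower in the knockout. Mir453 was higher, and Mir341, the brightest of the region at 7.89 and 7.83, differed by -0.06.

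The protein-coding genes at the 2 ends, expressed from the paternal chromosome, were both lower in the knockout. Dlk1, an inhibitor of fat cell differentiation, read 7.03 and 6.45, and Dio3, which inactivates thyroid hormone, read 5.64 and 5.17.

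**Figure D3:**
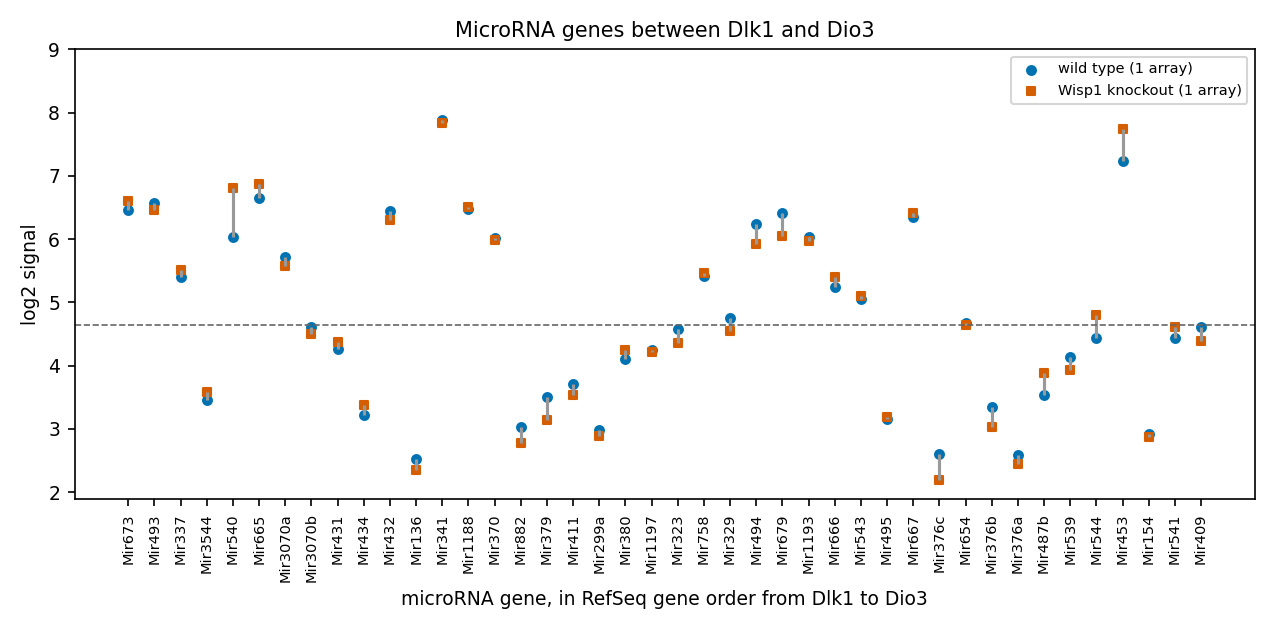
The log2 signal (y axis) of the 42 measured microRNA genes between Dlk1 and Dio3 is drawn in gene order (x axis) for the wild-type array (circles) and the knockout array (squares), with 4.65 as a dashed line. The largest gap is that of Mir540, and the genes on either side of it are higher in the knockout by smaller gaps.

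The miR-99/100 family came apart by gene. Mir99a was 0.67 higher in the knockout, Mir100 read 6.11 and 6.21, a difference of 0.09, and Mir99b read 5.88 and 5.79, a difference of -0.09. Each of the 3 sits in a group with a let-7 and a miR-125 gene. Beside Mir99a, Mirlet7c-1 read 3.45 and 3.61 and Mir125b-2 read 3.18 and 3.60, both below 4.65 and both higher in the knockout. Beside Mir100, Mir125b-1 read 4.93 and 5.10 and Mirlet7a-2 read 3.92 and 3.72. Beside Mir99b, Mirlet7e read 6.14 and 6.11. The host transcript Mir99ahg differed by 0.06, much less than Mir99a.

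The let-7 family restrains growth genes and is itself held down by Lin28 in early cells. Of 12 measured let-7 genes, 4 reached 4.65. Mirlet7i read 5.21 in wild type and 5.57 in the knockout, Mirlet7c-2 read 5.36 and 5.68, and Mirlet7d read 6.60 and 6.78. Mirlet7e alone of the 4 was lower, by 0.03. The 8 dimmer let-7 genes were split 4 higher and 4 lower. Lin28a (4.46 and 4.44) and Lin28b (3.10 and 3.06) lay below 4.65 on both arrays.

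The 3 genes whose printed strands share the seed GGCAGUG were lower in the knockout. Mir34b differed by -0.41, Mir34a read 5.94 and 5.73, a difference of -0.21, and Mir449a read 4.76 and 4.62, a difference of -0.13. Below 4.65, Mir34c read 3.04 and 2.70, and Mir449c read 4.10 and 4.29. Mir449b, which lies next to Mir449a and has no mature sequence in the table used, went the other way and was 0.16 higher. The sign of the 3 lower genes held under median centring, quantile normalization and loess centring. So did that of every microRNA gene at this level with a difference larger than 0.05, so this adds no support. Mir449a lay below 4.65 in the knockout and reached the mean that chose the genes through wild type.

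Some genes that make the same mature strand from different places gave unlike differences. Mir218-1 was 0.48 higher while Mir218-2, inside Slit3, read 5.90 on both arrays. Mir194-1 read 5.10 and 5.39, a difference of 0.28, and Mir194-2 read 6.76 and 6.62, a difference of -0.14. Of the 3 genes of miR-680, Mir680-1 and Mir680-2 differed by -0.09 and -0.12 and Mir680-3 by 0.25. The cluster used for Mir680-2 lies on another chromosome than the gene. A dimmer Mir680-2 cluster on the RefSeq chromosome read 6.46 and 6.50, a difference of 0.04, which has the other sign. Mir684-1 and Mir684-2, copies by name for which the table used holds no mature sequence, both differed by -0.29. The adjoining pair Mir181c and Mir181d read 0.29 and 0.15 higher. Their strands miR-181c-5p and miR-181d-5p share a seed but not the full sequence.

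**Figure D4:**
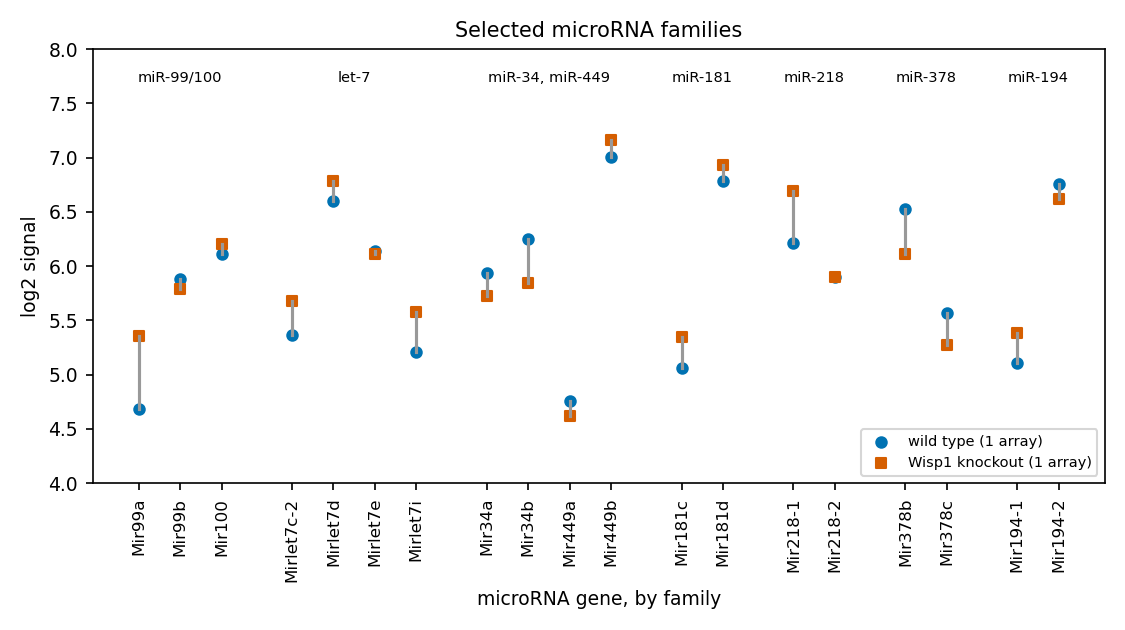
The log2 signal (y axis) of 19 microRNA genes in 7 families (x axis) is drawn for the wild-type array (circles) and the knockout array (squares). The families were picked after their values were seen: Mir34a, Mir34b, Mir449a and both miR-378 genes are lower in the knockout, both miR-181 genes are higher, and the other families are mixed.

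Among microRNA genes known from fibroblasts and fibrosis, 31 were measured and 12 reached 4.65. Of these 12, 8 read higher in the knockout and 4 lower, with a median difference of 0.05. Over all 31 the split was 16 higher and 15 lower. Mir199a-1, abundant in mesenchymal cells, read 4.77 and 5.07, and Mir29b-1, of the family that represses collagen genes, read 4.73 and 4.88, while the dimmer Mir29a read 3.78 and 3.36. Mir27a read 6.25 and 6.18 and Mir24-2, from the same transcript, 5.20 and 5.24. The count includes Mir99a and the miR-34 genes already described. Mir26b (0.07) and Mir212 (0.02) hardly differed. Mir143, typical of smooth muscle and stromal cells, read 5.69 and 5.81.

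Of 16 measured microRNA genes linked to fat, 5 reached 4.65. Mir378b read 6.53 and 6.11 and Mir378c 5.57 and 5.27, although the cluster used for Mir378c lies on another chromosome than the gene. Mir378d, at 4.15 and 3.60, was also lower but below 4.65. Mir196a-1, which lies in a Hox gene cluster, read 5.89 and 5.53, and its paralog Mir196a-2 read 4.21 and 3.94. Mir155, which restrains fat cell formation, was higher at 5.46 and 5.76, and Mir193b read 6.17 and 6.24.

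The adipocyte markers measured beside them summed to 26.7 in wild type and 24.9 in the knockout, with Retn at 4.90 and 3.81 and Adipoq at 4.50 and 3.86, both with means below 4.65. Plin1, the only adipocyte marker with a mean of 4.65 or more, read 4.83 and 4.87. Of the 6 markers, 2 read higher and 4 lower. Their part in the fat-linked microRNA values was not tested.

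Cartilage microRNAs were weakly covered. Mir140, the microRNA best known from cartilage, read 3.05 on both arrays. Of 6 measured genes, Mir455 (6.70 and 6.55) and Mir320 (7.44 and 7.40) reached 4.65, and both were slightly lower in the knockout. Mir210, the microRNA best known for its induction in low oxygen, read 6.61 and 6.47.

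Lists for other cell types were mostly dim. None of the 8 measured microRNA genes of skeletal and heart muscle, the 8 of epithelium, the 8 of liver and pluripotent cells or the 1 of endothelium reached 4.65. Of 7 from blood and myeloid cells, 4 did. Mir146b, induced in inflammation, read 4.95 and 5.25, Mir150 read 5.49 and 5.60, and Mir155 is on this list too. Mir486, abundant in red cells and muscle, was lower at 6.50 and 6.17, and Mir142, restricted to blood cells, read 4.55 and 4.38. The macrophage markers that read higher beside these genes are given above. Of 12 linked to neurons, Mir7-1 read 6.61 and 6.88, and the other 2 were the Mir218 genes. Of 7 on the list of the Mir17 cluster and related genes, only Mir92b, which lies on chromosome 3, reached 4.65, at 5.38 and 5.19.

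A long run of microRNA genes lies in an intron of Sfmbt2, a Polycomb gene, and belongs mainly to the Mir466, Mir467 and Mir669 families. Of 67 measured there, 14 read higher in the knockout and 53 lower (79.1%), with a median of -0.11. Over all 595 measured microRNA genes, these 67 among them, 60.7% read lower. Most of the 67 lay below 4.65, where 63.3% of all microRNA genes and 54.8% of all named genes read lower. At or above 4.65 were 19, of which 5 read higher and 14 lower (73.7%). At that level 55.9% of the 211 microRNA genes and 39.9% of all named genes read lower. For 14 of these 19 the cluster lay on the chromosome of Sfmbt2, and 4 of them read higher and 10 lower, with a median of -0.09. Sfmbt2 itself read 4.02 on both arrays. Genes of the same family here can be close copies whose clusters share probes, so the counts are not of separate measurements. Mir467a-3, Mir467a-6 and Mir467a-10 held the same values, 5.08 and 4.79. How alike the sequences of the 67 genes are was not compared.

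Many microRNAs are cut from an intron of a host gene. Among the 188 genes whose cluster lay on the RefSeq chromosome, 71 lay inside another gene on the same strand (31 had no strand to compare), and 46 of them had a host with a signal of 4.65 or more. In 45 of these pairs both values differed between the arrays, and the signs were the same in 25 (55.6%) and opposite in 20. Both values of a pair come from the same 2 arrays, and a cluster inside a gene can also detect the host's own transcript.

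Hosts themselves differed little, and only 4 pairs had a host difference of 0.25 or more in size. Mir763 (6.34 in wild type, 6.00 in the knockout) was lower together with Hmga2, a chromatin protein of growing mesenchymal cells (7.47 and 6.94). Mir708 (4.78 and 5.01) was higher with Tenm4 (4.76 and 5.11). Mir3100 differed by -0.03 beside -0.28 for Dmpk. Mir1932 went the other way, at -0.09 beside 0.48 for Rnf213.

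Of the 20 microRNA genes with the 10 highest and 10 lowest differences, 10 lay inside a measured gene on the same strand. These 10 do not include the 4 genes that differed by 1.5-fold. The host had the same sign in 3 and the opposite sign in 7, and host differences ran from -0.11 to 0.32. Mir99ahg, given above as the host transcript of Mir99a, was measured but not paired with it in the host counts. It differed by 0.06, with the same sign as Mir99a. Mir218-1 was 0.48 higher beside -0.11 for Slit2, and Mir1198 was 0.49 lower in the knockout (-0.49) beside -0.03 for Gripap1. Mir3109 differed by -0.43 and its host Anxa2 by 0.02, and Mir342 by -0.36 beside 0.16 for Evl. Mir34b, at -0.41, lies in Hoatz, which was 0.32 higher but had a mean of 3.93, below 4.65. Mir3095 and its host Lpar1 were both higher, by 0.45 and 0.15. Among genes with smaller differences, Mir100 and Mir125b-1 were 0.09 and 0.17 higher, while their host Mir100hg read 6.00 and 5.77. Mir455 differed by -0.15 beside 0.07 for Col27a1, a fibrillar collagen of cartilage.

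**Figure D5:**
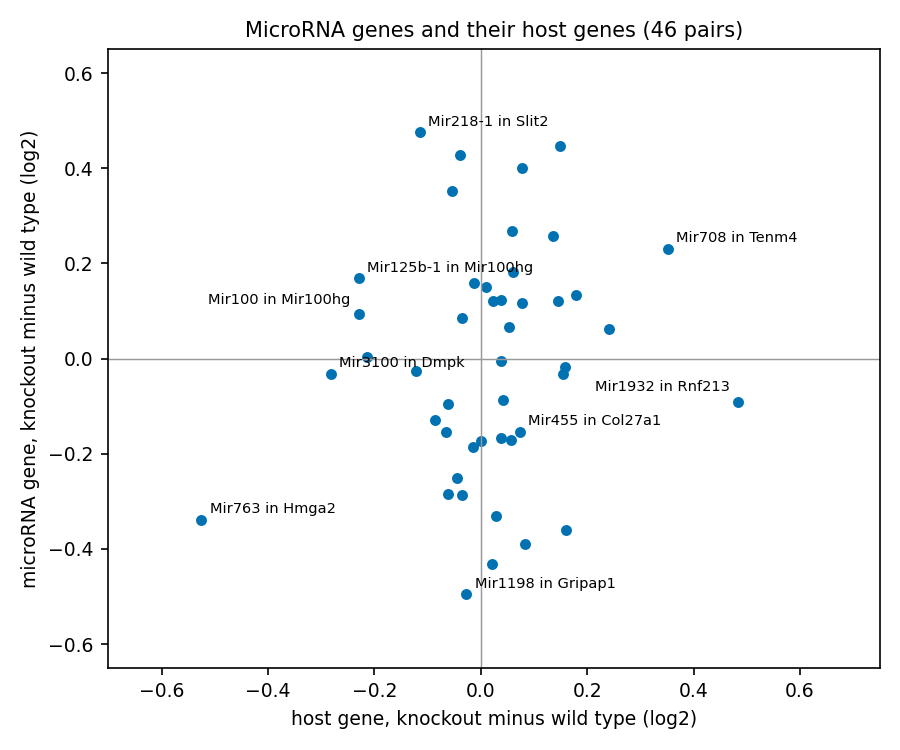
Knockout minus wild type (log2) of the host gene (x axis) is plotted against that of the microRNA gene inside it (y axis) for the 46 pairs with both at or above 4.65. The points show 25 pairs of the same sign and 20 of opposite sign. Mir763 in Hmga2 lies far to the lower left.

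The genes that make and use microRNAs showed small differences. Of 55 listed, 47 were measured, and none differed by 1.5-fold: 32 read higher in the knockout and 15 lower, with a median difference of 0.05 that was 0.01 after quantile normalization or loess centring. The nuclear enzyme Drosha read 7.76 and 7.91. Exportin 5 (Xpo5) read 7.49 and 7.48, Dicer1 read 6.86 and 6.87, and Ago2, the Argonaute that can slice its target, read 8.40 and 8.33.

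In the effector list, 7 of 13 genes read higher and 6 lower, and Fmr1, an RNA-binding protein of the silencing complex, had the largest difference at 8.09 and 8.61. The list of deadenylation and decay factors had 12 of 13 genes higher, with a median of 0.10, where 56.9% of all named genes read higher. The median was 0.06 after quantile normalization, with 11 of 13 higher, and 0.07 after loess centring, with 12 of 13. Pan2, a deadenylase, read 5.90 and 6.24, and Cnot8, another, read 8.01 and 8.21.

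The threshold that chose the genes falls in a dense range. Just above it were Mir654 and Mir329, both with a mean of 4.66, and Mir6915 at 4.65, and just below were Mir211 and Mir544 at 4.63 and Mir7118 at 4.61. Mir329 and Mir654 lay below 4.65 in the knockout alone, and Mir544 (4.44 and 4.81) and Mir211 (4.53 and 4.73) lay above it there.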

How the data were processed

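The authors deposited log2 values per transcript cluster, made with RMA in Partek software per the submitters' processing notes, with no versions given. That the scale is log2 follows from the range of the values. RMA makes arrays more alike in distribution, so a shift shared by most genes is largely removed and cannot be read from these values. A small lean remained. Of named genes at or above 4.65, 56.9% read higher in the knockout, and of those below it 54.8% read lower. The genome build of the array design is not given in the sources used here. All 65956 clusters were read, and gene names came from the platform annotation, updated through RefSeq (GRCm38.p6), whose tables also gave sequences, chromosomes, gene order and, for microRNAs and promoters, strands. Clusters with several symbols were left out. Differences were computed without further normalization, and the number of arrays limits the precision. Counting was tested on simulated data. Scripts ran in Python 3.11.15 on pandas 2.3.3 and numpy 2.4.6, loess came from statsmodels 0.14.6, and plots from matplotlib 3.10.9.

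The named genes were, by rule, those with 1.5-fold differences, the 10 highest and 10 lowest differences, the 10 highest means, 3 on each side of the threshold, genes on the microRNA lists with their hosts and neighbours, and pathway genes. The microRNA genes and lists were chosen with earlier results of these data known, and the seed families, the host pairs with the larger host differences, the 7 promoter matches, Mir684-1, Mir325, Mir680, Mir3067, Mir449c and Mir3098 lie outside the rule and were picked after their values were seen. Alternatives were other filters, 3 scalings (median centring, quantile, loess with span 0.3), the mean over clusters, clusters with several symbols and clusters on the RefSeq chromosome.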

Additional observations from a re-analysis of the deposited data

How the results depend on the processing

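No microRNA gene differed by 2-fold under any of the 10 alternatives. A threshold 1 log2 unit higher left 123 genes, with 1 at least 1.5-fold higher, 0 lower and 15 host pairs of the same sign. Without a filter there were 595 genes, 5 of them at least 1.5-fold lower. Keeping clusters with several symbols gave 528. Median centring left 1 gene at least 1.5-fold lower, because Mir7228 lies close to that size. The median difference stayed between -0.06 and -0.01 and the percent higher between 38.0% and 46.2% under all 10. Host pairs and the pathway median were not run with clusters of several symbols or of the RefSeq chromosome only. No paired analysis was possible because each genotype has 1 array. For the same reason no replicate could be left out, and no difference has a measured error.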

Other observations

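The name Mir3098 was carried by a second, dimmer cluster on another chromosome than RefSeq gives, which read 4.76 in wild type and 5.86 in the knockout, a difference of 1.10. The cluster on the RefSeq chromosome, which was the one used, read 5.65 and 5.51.

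Clusters with several symbols that include a microRNA were not part of the count. There were 537, of which 317 had a mean of 4.65 or more. None of these differed by 2-fold, 1 was higher by 1.5-fold or more and 1 was lower by as much. In all, 152 read higher and 158 lower, with a median of 0.00.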
